A study of Homo sapiens with 15 samples.

Results

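A 10-fold increase in dose, 5 nM against 0.5 nM of ZJ-101, was compared in spheroids of the MDA-MB-231 line, with 3 libraries at each dose and without the vehicle libraries. The 6 libraries of this step were chosen by their labelled dose alone, out of 15 in the series. Of 59608 gene symbols listed, the 15233 with a mean of at least 10 normalised reads over the 15 libraries were tested. ZJ-101 is a small molecule made by synthesis and modelled on the sponge metabolite superstolide A. MDA-MB-231 is an established human line of triple-negative breast cancer. In both groups the cells formed spheroids for 72 h in ultra-low attachment plates with 96 wells and then received the compound for 24 h. At the end the spheroids and loose cells of a plate were pooled, and a plate counted as 1 biological replicate. The other groups were 50 nM, 500 nM and 0.1% DMSO as vehicle, with 3 plates each, and are compared among themselves, without the libraries of the step, except in fits and a test of the difference between steps that are named as such. Each plate received a single dose, so that an effect of the plates of one dose and an effect of that dose cannot be told apart. A difference in the makeup of the pooled cells and a difference in RNA per cell cannot be told apart either.

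Spheroids hold together through cadherins and desmosomes between cells, through integrins bound to a matrix the cells secrete themselves, and through the actin cytoskeleton behind both. Surface and secreted proteins are folded in the endoplasmic reticulum (ER) and receive their sugars there and in the Golgi, and lysosomes break down what is taken up or turned over. Cells that change shape or contact also change the activity of YAP, a coactivator that drives CCN1 and other genes together with TEAD factors. The study relates the compound to loss of adhesion in spheroids, and the step asks which transcripts first moved between its 2 lowest doses.

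The libraries of the step held 8052442 to 9865817 reads in genes, and the coefficient of variation between plates was 3.96% (biological part, edgeR). Of the defining markers of the line, VIM, CD44, AXL and CAV1 lay between 3138 and 18870.1 normalised reads in all 6 libraries, while LDHB, in the same list, was at 20.8 to 35.4. The luminal markers KRT19 (5656 to 6392) and SPDEF (541 to 580) were present too, while the hormone receptor genes PGR and ESR1 were at 0 and at no more than 1.09. Of 2 further genes chosen as low markers of the line, CDH1 was at 3.61 to 14.9 normalised reads, but EPCAM was at 203.8 to 256.2. Of 12 tested marker genes of the line 6 were themselves called higher at 5 nM and none lower, VIM (1.08-fold) and ANXA1 (1.10-fold) among them. Replicate 2 of each dose held the most fibroblast transcripts. The sum over COL1A1, COL1A2, COL3A1, DCN, LUM and POSTN was 869, 3047 and 522 normalised reads at 5 nM and 497, 4371 and 784 at 0.5 nM. None of the 11 tested fibroblast markers was called in the step. Traces lay in replicate 3 at 0.5 nM and replicate 1 at 5 nM too, with COL3A1 at 18.6 and 17.1 normalised reads. COL3A1 was at 2.70 in replicate 1 at 0.5 nM and 2.22 in replicate 3 at 5 nM. As an alternative, both replicate 2 libraries were left out. That fit also has fewer libraries, so that a call lost in it cannot be assigned to fibroblast transcripts. The blood marker PTPRC was at no more than 2.22 normalised reads in these libraries. PECAM1, a defining endothelial marker, had 204, 178 and 191 normalised reads at 5 nM and 184, 145 and 168 at 0.5 nM and was not called.

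Between 0.5 and 5 nM, 1055 genes (6.93% of those tested) changed at an adjusted p below 0.05 in limma, two-sided. At 5 nM 540 of them (3.54%) were higher and 515 (3.38%) lower. Most changes were small. The median absolute log2 fold change of called genes was 0.22, with 39 genes higher and 40 lower by at least 1.5-fold, and 9 higher and 8 lower by at least 2-fold. All 3 libraries at 5 nM lay beyond all 3 at 0.5 nM in 1016 of the 1055 called genes, against 22.9% of all genes tested. The count was 748 without both fibroblast-rich libraries. It was 606 without replicate 1 and 693 without replicate 2 at 0.5 nM, the omissions that lowered it by more than 1.5 times, and DESeq2 called 505 genes. Leaving out replicate 1 at 5 nM lowered the genes called higher to 344.

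**Figure D1:**
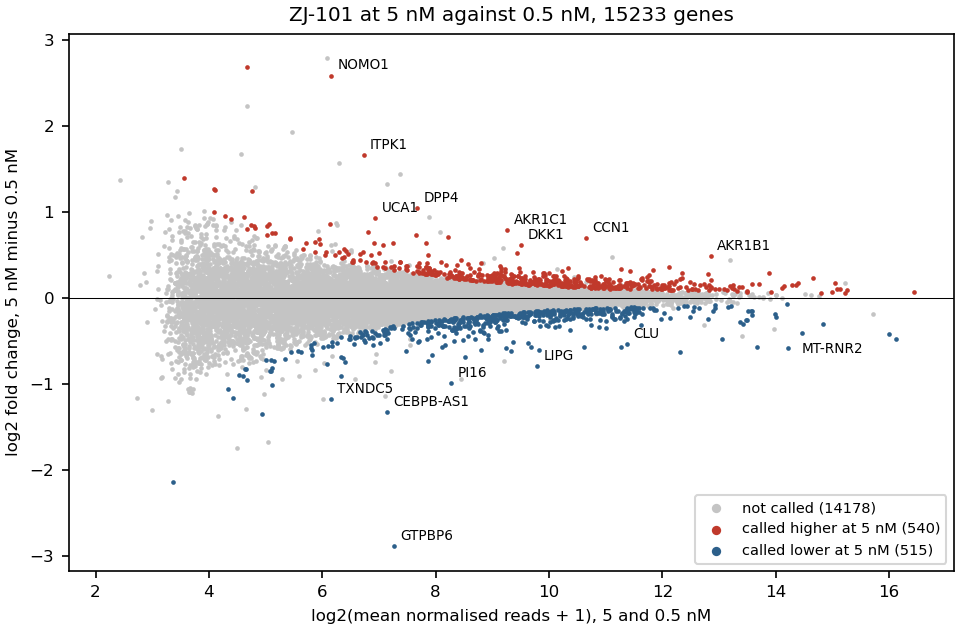
Log2 fold change of 5 nM over 0.5 nM against the mean level for each tested gene. The 540 genes called higher and the 515 called lower lie mostly within 1.5-fold of no change, and GTPBP6 lies lowest, at a log2 fold change of -2.89.

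Among the genes that rose most was DPP4, the surface peptidase that trims incretin and chemokine peptides (chr2:161992245-162074394 on hg38, GENCODE 44). DPP4 had 297, 255 and 273 normalised reads at 5 nM, against 132, 128 and 139 at 0.5 nM. The lowest library at 5 nM stood far above the highest at 0.5 nM, a 2.06-fold difference (log2 1.04 ± 0.10 SE, adjusted p = 6.93e-15). AKR1C1, a reductase that acts on progesterone and on reactive aldehydes (chr10:4963253-4983283), had 819, 699 and 824 normalised reads at 5 nM and 455, 432 and 465 at 0.5 nM (1.73-fold, adjusted p = 1.09e-18). CCN1, the matricellular protein also named CYR61 (chr1:85580761-85584589), had 2068, 1974 and 1949 normalised reads at 5 nM, against 1175, 1345 and 1188 at 0.5 nM. Its 1.62-fold rise had the smallest p among higher genes that met the same conditions (adjusted p = 7.24e-22). RGS4, which speeds the switching off of G proteins (chr1:163068775-163076802), stood at 145, 148 and 147 normalised reads at 5 nM and 98.3, 95.0 and 87.0 at 0.5 nM (1.56-fold, adjusted p = 5.19e-05).

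EGR1, an immediate early transcription factor (chr5:138465479-138469303), was less even, with 399.7, 411 and 296 normalised reads at 5 nM and 215, 262 and 196 at 0.5 nM (1.64-fold, adjusted p = 0.0434). Its call was lost in edgeR, in the fits to 12 and 15 libraries, with scaling to nuclear genes and without any of 3 single libraries (replicates 1 and 3 at 0.5 nM, replicate 1 at 5 nM). Several long noncoding RNAs rose in the step. UCA1, first described in bladder cancer (chr19:15828206-15836328), had 174, 149 and 156 normalised reads at 5 nM and 85.7, 77.6 and 86.1 at 0.5 nM (1.91-fold, adjusted p = 8.18e-09). DGCR5 (1.71-fold) and PRKG1-AS1 (1.66-fold) also rose with groups that did not overlap. Exons of UCA1 overlapped genes of the opposite strand over 26.1% of their length, and the strand setting of the counts was not given in the sources used here.

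**Figure D2:**
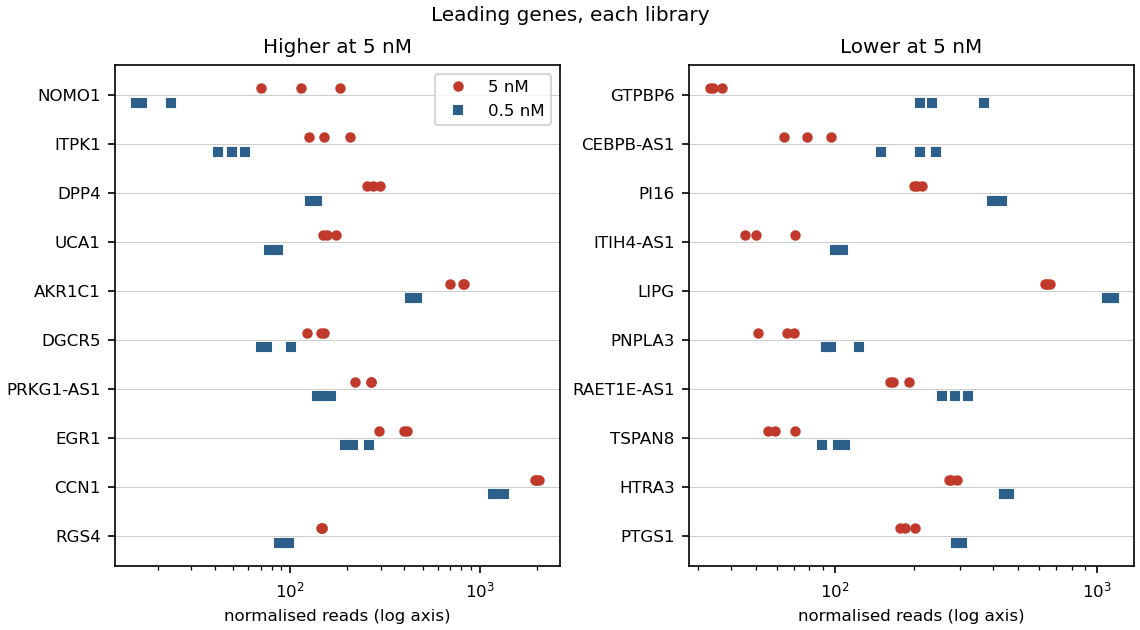
Normalised reads in each library, on a log axis, for the leading genes, 10 in each direction, with the 3 libraries at 5 nM drawn as circles above the 3 at 0.5 nM drawn as squares. The groups do not overlap in any of the 20 genes, as the rule that chose them required.

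On the falling side, LIPG, the endothelial lipase that releases fatty acids from high density lipoprotein (chr18:49560699-49599185), had 633, 663 and 646 normalised reads at 5 nM, against 1119, 1090.3 and 1157 at 0.5 nM (1.73-fold lower, adjusted p = 1.89e-23). PI16, a peptidase inhibitor of the CAP family (chr6:36948263-36964837), had 206, 215 and 199.6 normalised reads at 5 nM and 434, 397 and 407 at 0.5 nM (1.99-fold lower, adjusted p = 4.43e-18). Every library at 5 nM stood near the lower edge of these ranges and no library crossed over. HTRA3, a secreted serine protease, had 276, 273 and 292 normalised reads at 5 nM and 446, 461 and 441 at 0.5 nM (1.60-fold lower). PTGS1, the constitutive cyclooxygenase, had 201, 186 and 177 at 5 nM and 307, 291 and 296 at 0.5 nM (1.58-fold lower). The tetraspanin TSPAN8 was 1.63-fold lower, and PNPLA3, a lipid droplet enzyme with variants linked to fatty liver, 1.67-fold lower. PNPLA3 had 69.7, 65.9 and 51.0 normalised reads at 5 nM and 124, 92.9 and 96.8 at 0.5 nM, so that its groups were separate but spread.

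CLU, the extracellular chaperone clusterin, had 2107, 2111 and 2284 normalised reads at 5 nM and 3149, 3057 and 3194 at 0.5 nM (1.45-fold lower, adjusted p = 2.98e-22). VWA1, a matrix protein with a von Willebrand domain that the study had named as lowered, had 1271, 1251 and 1281 at 5 nM and 1889.8, 1902 and 1847 at 0.5 nM (1.48-fold lower, adjusted p = 1.32e-20). With 2 ribosomal RNAs of the mitochondrion and LIPG, these had the smallest p among the lower genes. Of the noncoding RNAs, CEBPB-AS1 (2.50-fold), RAET1E-AS1 (1.66-fold) and ITIH4-AS1 (1.87-fold) fell, and exons of ITIH4-AS1 overlapped the opposite strand over 57.7% of their length. CEBPB, the transcription factor encoded beside CEBPB-AS1, had 695, 603 and 649.8 normalised reads at 5 nM and 935, 972 and 899 at 0.5 nM (1.44-fold lower). The call of CEBPB-AS1 was lost without replicate 1 at 5 nM and with a replicate block.

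Among genes with a mean of at least 100 normalised reads in whichever group was higher, the 3 largest changes belonged to genes whose sequence occurs more than once in the build. GTPBP6, a GTP-binding protein in the pseudoautosomal region (chrX:304529-318796, with the same bases on chromosome Y of the reference), had 34.3, 37.1 and 33.3 normalised reads at 5 nM and 371, 212 and 235 at 0.5 nM (7.40-fold lower). NOMO1, an ER membrane protein of a gene family with near-identical copies (chr16:14833721-14896157), had 183, 70.6 and 114 normalised reads at 5 nM and 23.4, 15.3 and 16.6 at 0.5 nM (6.0-fold higher). ITPK1, an inositol phosphate kinase (chr14:92936914-93116320), had 125, 150.4 and 207 at 5 nM and 41.5, 49.2 and 57.7 at 0.5 nM (3.17-fold higher). Of the 31-base words of NOMO1, 89.9% occurred elsewhere on the primary chromosomes, and all of those of ITPK1 occurred on alternate contigs of the build. How the aligner shared such reads was not tested, and these values are uncertain. The call of NOMO1 was lost in edgeR and without replicate 2 or 3 at 0.5 nM, that of ITPK1 in the fit to 12 libraries. Across all genes, 38 of 639 found to have a second copy were called (5.95%). The other 1017 calls were not on these genes. Copies were sought only for the 13151 of 15233 symbols with a matched position, so calls on unmatched symbols were not checked.

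Most transcripts of the mitochondrial genome fell. The genome of the mitochondrion encodes 13 subunits of the respiratory chain and the ATP synthase, with 2 ribosomal RNAs and the tRNAs needed to translate them. Mitochondrial genes took 2.20%, 2.05% and 2.03% of the reads in genes at 5 nM, against 2.91%, 2.80% and 2.69% at 0.5 nM. The share was thus lower in every library at 5 nM than in any at 0.5 nM. All 13 mRNAs had all 3 libraries at 5 nM below all 3 at 0.5 nM, and 11 of the 13 (84.6%) were called lower, with a median log2 fold change of -0.41, beside 0.00 over all tested genes.

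MT-ND6, the only mRNA encoded by the light strand, was 1.54-fold lower, with 4188, 3899.8 and 3881 normalised reads at 5 nM and 6342, 6561 and 5570.4 at 0.5 nM. The complex I subunit MT-ND4 had 16251, 14742 and 15118 at 5 nM and 24358, 22723 and 21698 at 0.5 nM (1.49-fold lower). MT-CO1, a catalytic subunit of cytochrome oxidase, had 61852, 58920.0 and 58182 at 5 nM and 85552, 82805 and 79987 at 0.5 nM (1.39-fold lower). The libraries of these 3 genes did not overlap, and among the called mRNAs MT-ND2 moved least (1.14-fold lower). MT-ATP6 and MT-ND1 were not called, at adjusted p = 0.103 and 0.0673, although their libraries were separate. The ribosomal RNAs had the smallest p of the step: MT-RNR2 had 55961, 56532 and 55382 normalised reads at 5 nM and 75558, 74855 and 73899 at 0.5 nM (1.34-fold lower, adjusted p = 4.12e-41), and MT-RNR1 was 1.39-fold lower. Up to 73.0% of the words of MT-RNR1 also occur in nuclear copies, and the library was selected for poly(A), which mitochondrial RNAs carry as short tails.

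The count of lower mitochondrial mRNAs was 7 without replicate 2 and 6 without replicate 3 at 5 nM, and 4 without both fibroblast-rich libraries. It was 7 when genes with a second copy were left out, which removes several mitochondrial genes themselves. At the other doses the share was 2.67 to 2.92% with DMSO, 2.38 to 2.71% at 50 nM and 2.73 to 2.77% at 500 nM, so that no library outside the 5 nM group was as low. When libraries were scaled to their reads in nuclear genes alone, 1033 genes were called, 426 higher and 607 lower.

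**Figure D3:**
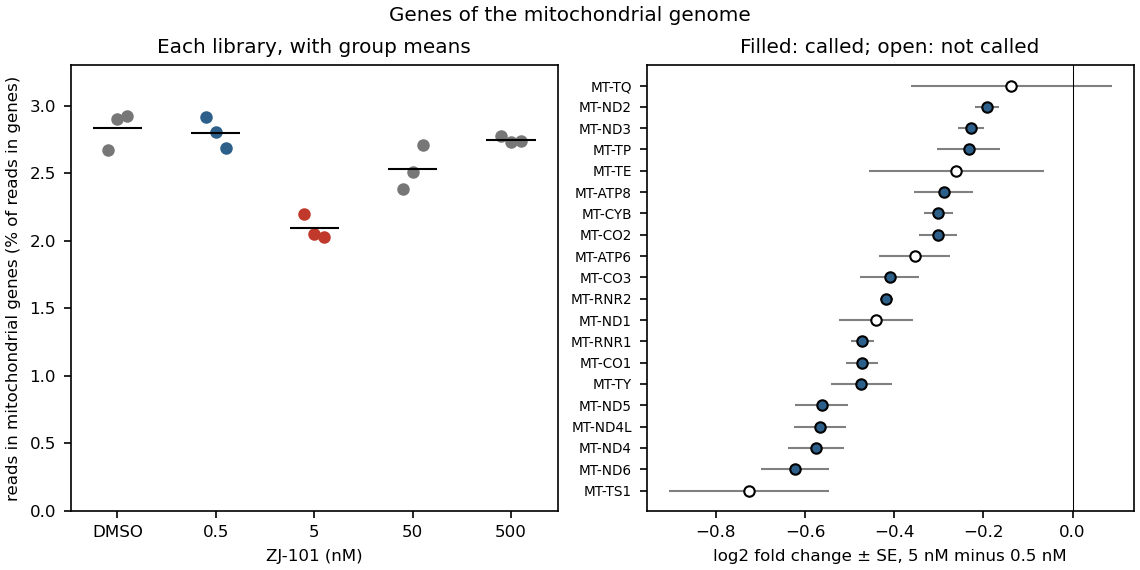
Left, the share of reads in mitochondrial genes in each library by dose, with the group mean as a bar: the 3 libraries at 5 nM lie between 2.03 and 2.20%, below all others. Right, the log2 fold change of 5 nM over 0.5 nM ± SE for each tested mitochondrial gene, with filled points called and open points not called.

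Of 39 tested genes of G2/M, the spindle and chromosome segregation, 15 were called higher and none lower (median log2 fold change 0.17). Of 46 genes of the G1/S transition and DNA replication, 10 were called higher and none lower (median 0.13). The shares called in these lists were 38.5% and 21.7%, beside 6.93% of all genes. The kinesin KIF20A, which acts at the end of cell division, had 620.5, 626 and 653 normalised reads at 5 nM, against 488, 484 and 495 at 0.5 nM (1.29-fold higher, adjusted p = 1.98e-06). CDC20, the activator of the anaphase-promoting complex, had 921, 878 and 975 at 5 nM and 730.3, 734 and 785 at 0.5 nM (1.23-fold higher). The spindle assembly factor TPX2 (1.16-fold), the mitotic kinases PLK1 (1.18-fold) and AURKA (1.18-fold), and ANLN, a scaffold of the contractile ring (1.17-fold), rose too.

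Of the replication genes, PCNA, the sliding clamp of DNA polymerase, had 1121, 1101 and 1154 normalised reads at 5 nM and 926, 939.6 and 898 at 0.5 nM (1.22-fold higher, adjusted p = 3.10e-06). The helicase subunit MCM3 rose 1.12-fold, thymidine kinase TK1 1.17-fold and E2F1, a transcription factor of S phase entry, 1.17-fold. CCND1, the D-type cyclin of G1, had 5282, 5107 and 5177 at 5 nM and 4531, 4479 and 4528 at 0.5 nM (1.15-fold higher), while its partner kinase CDK6 fell 1.20-fold and the antiproliferative factor BTG1 1.25-fold. Without replicate 1 at 0.5 nM the counts were 8 mitotic and 4 G1/S genes, with MCM3 no longer called, and without replicate 2 at 0.5 nM or replicate 1 at 5 nM 6 G1/S genes. DESeq2 called 4 G1/S genes higher, and without both fibroblast-rich libraries the counts were 11 and 8.

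Promoters of these genes are shown because the group moved in 1 direction and shares known elements. Mitotic genes are often regulated through a cell cycle genes homology region (CHR, TTTGAA), and S phase genes by E2F elements (searched here as TTTNGCGC). In 300-base RefSeq promoters of build GRCh38.p14, from 250 bases before to 50 after the start, a CHR on either strand was found in 21 of 34 mitotic genes with a promoter, beside 15.4% of all 27305 promoters. An E2F element was found in 14 of 38 G1/S genes, beside 1.83% of all promoters. Of the called genes with a promoter, 7 of 12 mitotic genes held a CHR and 4 of 8 G1/S genes an E2F element. For the CHR this share was no larger than in the whole list. Other lists were searched for elements of their own. The TEAD element was found in 8 of 26 promoters of the YAP list (14% of all promoters) and the NRF2 element in 4 of 20 (13.6%). The heat shock element was found in 4 of 27 (0.487%), the sterol element in 1 of 21 (1.15%) and the ATF4 element in 0 of 23 (1.02%). A match is a description of the letters, not of binding. Capitals mark the CHR in CDC20 and ANLN, where the 2 matches of ANLN lie end to end, and the E2F element in MCM3:
CDC20, chr1:43358731-43359030 (+ strand): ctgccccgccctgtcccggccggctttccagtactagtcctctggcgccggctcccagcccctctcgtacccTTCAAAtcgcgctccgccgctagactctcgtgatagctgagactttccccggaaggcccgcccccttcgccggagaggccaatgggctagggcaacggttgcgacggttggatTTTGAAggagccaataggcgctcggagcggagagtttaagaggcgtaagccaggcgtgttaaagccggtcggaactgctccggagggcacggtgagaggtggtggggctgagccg
ANLN, chr7:36389612-36389911 (+ strand): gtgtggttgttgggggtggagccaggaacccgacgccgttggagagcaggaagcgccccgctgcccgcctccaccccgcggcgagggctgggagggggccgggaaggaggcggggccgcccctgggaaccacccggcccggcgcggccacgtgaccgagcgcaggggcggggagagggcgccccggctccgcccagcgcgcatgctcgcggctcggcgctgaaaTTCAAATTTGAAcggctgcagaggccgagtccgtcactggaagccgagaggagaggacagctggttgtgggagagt
MCM3, chr6:52284693-52284992 (- strand): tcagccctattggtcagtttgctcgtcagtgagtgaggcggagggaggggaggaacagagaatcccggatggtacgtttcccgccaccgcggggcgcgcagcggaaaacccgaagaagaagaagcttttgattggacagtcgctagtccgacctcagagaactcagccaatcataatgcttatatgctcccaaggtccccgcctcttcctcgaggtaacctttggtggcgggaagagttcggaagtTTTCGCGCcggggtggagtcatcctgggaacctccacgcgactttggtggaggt

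Of 45 tested genes of actin, focal adhesions and caveolae, 15 were called higher and none lower (median log2 fold change 0.10). That was 33.3% of them, beside 6.93% of all genes. FLNA, a filamin that crosslinks actin and ties it to integrins, had 29003, 27445 and 27879 normalised reads at 5 nM and 23661, 24056 and 23698 at 0.5 nM (1.18-fold higher, adjusted p = 4.43e-18). FLNC, a filamin best known from muscle, rose 1.25-fold. The cytoplasmic actin ACTG1 had 36173, 34931 and 36436 at 5 nM and 31661, 32149 and 31676 at 0.5 nM (1.13-fold higher). The focal adhesion proteins VCL (1.10-fold), TLN1 (1.07-fold) and PXN (1.09-fold) and the actin-regulated transcription factor SRF (1.10-fold) were also higher. The number of actin genes called higher was 9 without replicate 1 at 0.5 nM and 9 without replicate 1 at 5 nM, and it was 17 without both fibroblast-rich libraries.

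Of 35 tested genes of the Hippo pathway and its YAP and TEAD targets, 6 were called higher and 3 lower (median -0.02). Together these were 25.7% of the list, beside 6.93% of all genes. Of the 3 lower genes, 2 were the factors YAP1 and TEAD1 themselves and 1 was RBMS3. Besides CCN1, the muscle ankyrin repeat protein ANKRD1 had 664, 658 and 659 normalised reads at 5 nM and 507, 556 and 539.8 at 0.5 nM (1.24-fold higher). The receptor kinase AXL had 3891, 3648 and 3912 at 5 nM and 3138, 3199 and 3174 at 0.5 nM (1.20-fold higher), again with no overlap. AMOTL2, an angiomotin that restrains YAP, rose 1.22-fold, a call lost without replicate 1 at 0.5 nM. YAP1 was 1.11-fold and TEAD1 1.11-fold lower. The number called higher was 3 without replicate 1 at 0.5 nM. DKK1, a secreted inhibitor of Wnt signals, had 887, 839 and 910.4 normalised reads at 5 nM, against 579.8, 543 and 599 at 0.5 nM (1.53-fold higher, adjusted p = 1.33e-15), and it was the only 1 of 26 Wnt genes called higher, with 2 lower. The share of Wnt genes called was 11.5%, beside 6.93% of all genes.

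Genes downstream of ERK rose more often than they fell, with 9 of 40 higher and 1 lower (median 0.06). In all 25% of them were called, beside 6.93% of all genes. EPHA2, an Eph receptor kinase that the study had named as raised, had 4097, 3865 and 4253 normalised reads at 5 nM and 3294, 3176 and 3233 at 0.5 nM (1.26-fold higher, adjusted p = 9.03e-14). The AP-1 subunits FOSL1 (1.17-fold), JUN (1.16-fold) and FOSB (2.38-fold) and the phosphatases DUSP1 (1.26-fold) and DUSP6 (1.10-fold) were higher, and FOSL2, a further AP-1 subunit, was 1.12-fold lower. The number called higher was 4 without replicate 3 at 0.5 nM, 4 without replicate 1 at 5 nM and 5 in DESeq2.

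Among adhesion genes, the laminin-binding integrin ITGA3 had 16938, 15883 and 16844 normalised reads at 5 nM and 13681, 13524 and 13427 at 0.5 nM (1.22-fold higher, adjusted p = 1.09e-18). ITGB4, the integrin of hemidesmosomes, had 5894, 5339.6 and 5971 at 5 nM and 4701, 4677 and 4608 at 0.5 nM (1.23-fold higher). Of 20 basement membrane genes 4 were called higher and 1 lower (median 0.00). The laminin chains LAMA5 (1.22-fold) and LAMB3 (1.13-fold) and the proteoglycan core proteins SDC1 (1.17-fold) and GPC1 (1.10-fold) were the higher ones, and SDC3 fell 1.15-fold. Of 16 integrin genes these 2 were called higher and 1, ITGA10, lower (1.17-fold), a call lost in DESeq2, without a filter, without both fibroblast-rich libraries and without any single library but replicate 1 at 5 nM. Genes of contact between cells went both ways, with 5 of 44 higher and 4 lower (median 0.08). PVR, the nectin-like poliovirus receptor, had 762, 818 and 802 normalised reads at 5 nM and 619, 622 and 625 at 0.5 nM (1.28-fold higher). CLDN4, which seals tight junctions, was 1.19-fold higher. BCAM, a laminin receptor of the immunoglobulin family, had 395, 382 and 366 at 5 nM and 564, 462 and 472 at 0.5 nM (1.30-fold lower), and the desmosomal plakin DSP fell 1.16-fold. Without single libraries (replicates 2 and 3 at 0.5 nM, 1 and 3 at 5 nM) the lower count of the list of cell contacts was 2, and the higher count was 3 without replicate 3 at 0.5 nM or replicate 1 at 5 nM. DESeq2 called 3 higher and 2 lower.

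Aldo-keto reductases rose at 5 nM and stood below the vehicle at 50 nM. These enzymes reduce aldehydes and ketones and are known targets of the antioxidant factor NRF2. AKR1B1, aldose reductase, had 9029, 8065 and 8806 normalised reads at 5 nM, against 6055, 6127 and 6282 at 0.5 nM (1.40-fold higher, adjusted p = 1.70e-13). AKR1C2, a close relative of AKR1C1, had 279.7, 281 and 263 at 5 nM and 169.5, 190.1 and 170.2 at 0.5 nM (1.55-fold higher), and AKR1C3 rose 1.12-fold. Of the words of AKR1C1 and AKR1C2, 46.8% and 50.6% occur elsewhere on the primary chromosomes, so reads may be divided between them. In libraries that the step does not use, AKR1C1 averaged 349 ± 16.2 normalised reads at 50 nM and 508 ± 31.5 with DMSO (SD, n = 3 each), and AKR1B1 4938 ± 129.9 at 50 nM and 6474 ± 92.8 with DMSO. All 4 reductases were called lower at 50 nM against DMSO. Of 29 NRF2 targets 7 were called higher in the step and 1 lower (median 0.06), or 27.6% beside 6.93% of all genes. Besides the reductases, those called higher were TXNRD1 (1.11-fold) and the ferritin chains FTL (1.08-fold) and FTH1 (1.04-fold). NFE2L2, which encodes NRF2 itself, was 1.10-fold lower.

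For other genes too, the change of the step was smaller or reversed at 50 nM against DMSO. In DPP4, the libraries at 50 nM averaged 153 ± 7.20 normalised reads and those with DMSO 139 ± 10.8 (SD, n = 3 each). PI16 averaged 518 ± 29.8 at 50 nM and 486 ± 24.3 with DMSO, and CLU 3619.6 ± 69.6 at 50 nM and 3191 ± 79.8 with DMSO. CLU was called lower in the step and higher at 50 nM against DMSO, as were TIMP3, an inhibitor of metalloproteinases (1.21-fold lower in the step), and BTG1. CSF1, the macrophage growth factor (1.12-fold), the complement component C3 (1.19-fold), NDRG1, a gene of the hypoxia response (1.17-fold), and the lysosomal protease CTSD (1.10-fold) rose in the step and were called lower at 50 nM against DMSO. LIPG, VWA1, CCN1 and DKK1 kept 1 direction: LIPG averaged 364 ± 29.8 normalised reads at 50 nM, against 1150.4 ± 16.9 with DMSO, and DKK1 1307 ± 25.3 at 50 nM, against 574 ± 15.1 with DMSO. The genes of this paragraph were picked from the named ones after their values were seen.

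**Figure D4:**
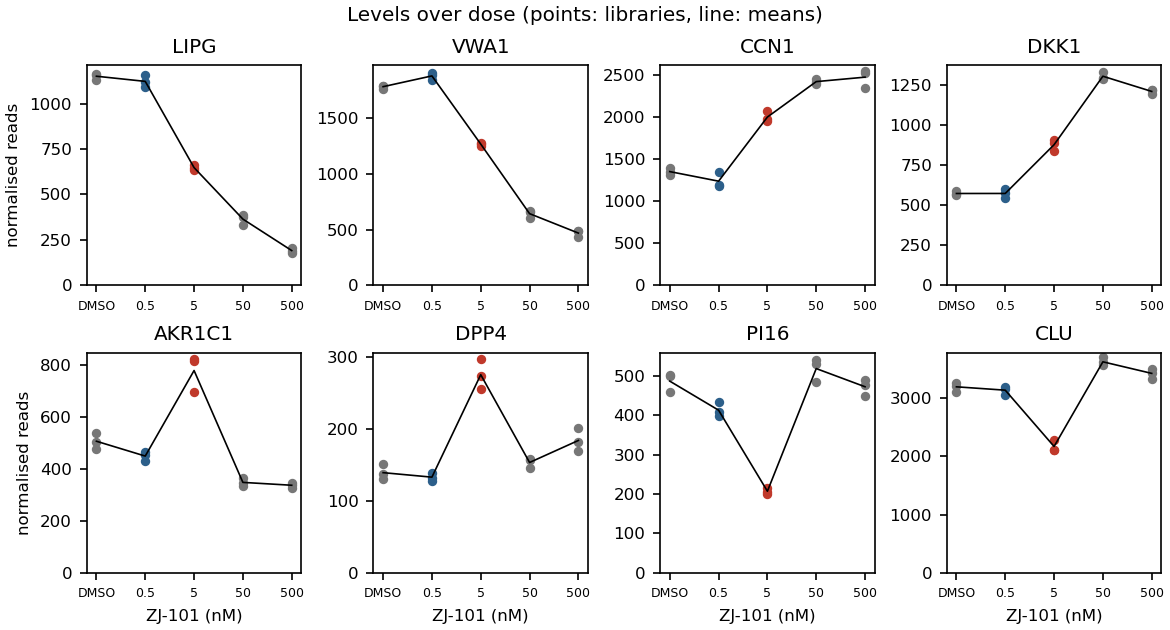
Normalised reads by dose for 8 genes, with each library as a point and the line through the group means. In the upper row LIPG and VWA1 fall and CCN1 and DKK1 rise from the 0.5 nM group. CCN1 and DKK1 were not called between 50 and 500 nM. In the lower row AKR1C1 and DPP4 peak and PI16 and CLU dip at 5 nM.

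Genes of ER folding fell more often than they rose, 9 of 34 against 4 (median -0.08), with 38.2% called beside 6.93% of all genes. DNAJC3, the co-chaperone P58IPK of the ER lumen, had 583, 565 and 495 normalised reads at 5 nM, against 784, 756 and 787 at 0.5 nM (1.42-fold lower, adjusted p = 5.57e-11). The lectin chaperone CALR had 15174, 15375 and 15161 at 5 nM and 17239, 16985 and 17531 at 0.5 nM (1.13-fold lower). The disulfide isomerases PDIA5 (1.29-fold) and PDIA6 (1.08-fold) and ERP44, which retains oxidases in the early secretory pathway (1.23-fold), were lower too. TXNDC5, a further member of that family, had 37.5, 41.8 and 46.6 at 5 nM and 106, 122 and 67.5 at 0.5 nM (2.26-fold lower), and its means were 97.1 normalised reads at 50 nM and 43.5 with DMSO, so that it varied between groups in no order of dose. The opposite direction was seen in HYOU1, a large ER chaperone of the HSP70 kind, with 3718, 3602 and 3715 normalised reads at 5 nM and 3125, 3120.2 and 3068 at 0.5 nM (1.18-fold higher), in the co-chaperone DNAJB9 (1.20-fold higher) and in CANX, the membrane-bound relative of CALR (1.05-fold higher). The lower count was 5 without replicate 1 at 5 nM and 5 in DESeq2. The higher count was 2 without replicate 1 or 2 at 0.5 nM, without replicate 3 at 5 nM and in DESeq2, and 1 without both fibroblast-rich libraries.

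The ER stress element (ERSE, CCAAT and CCACG with 9 bases of any kind, NNNNNNNNN, between them), through which ATF6 acts, was found on either strand in 6 of 31 promoters of ER folding genes, beside 0.0806% of all promoters. Of the 13 called genes with a promoter, HSP90B1 and CALR, both lower, and CANX, which was higher, held it. CALR is shown as the lower gene with the highest level among them, with the element in capitals:
CALR, chr19:12938359-12938658 (+ strand): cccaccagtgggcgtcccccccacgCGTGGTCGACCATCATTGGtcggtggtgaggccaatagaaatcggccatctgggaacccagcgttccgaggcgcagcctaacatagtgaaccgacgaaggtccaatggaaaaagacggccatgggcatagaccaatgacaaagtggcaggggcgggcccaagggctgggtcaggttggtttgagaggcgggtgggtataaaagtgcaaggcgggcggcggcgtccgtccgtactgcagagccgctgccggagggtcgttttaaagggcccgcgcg

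Around folding, the translocon that admits proteins to the ER had 4 of 35 genes higher and none lower (median 0.04), or 11.4% beside 6.93% of all genes. Its channel SEC61A1 had 3743, 3806 and 3904 normalised reads at 5 nM and 3317, 3303 and 3381 at 0.5 nM (1.15-fold higher, adjusted p = 2.35e-06). ERLEC1, a lectin that steers misfolded glycoproteins to degradation, had 477, 486 and 513 at 5 nM and 617, 643 and 666 at 0.5 nM (1.30-fold lower), and the related OS9 fell 1.11-fold. The translocon count was 2 without any 1 of 5 libraries (all replicates at 0.5 nM, replicates 1 and 3 at 5 nM). It was also 2 without a filter and without both fibroblast-rich libraries, and 1 in DESeq2 and with scaling to nuclear genes. Targets of the stress factor ATF4 were divided, 5 of 30 higher and 3 lower (median 0.04), or 26.7% beside 6.93% of all genes. The phosphatase regulator PPP1R15A had 1119.8, 1245 and 1174 normalised reads at 5 nM and 961, 1026 and 960.4 at 0.5 nM (1.20-fold higher). DDIT3, the stress factor CHOP, had 94.3, 89.1 and 98.7 at 5 nM and 142, 132 and 116 at 0.5 nM (1.38-fold lower), and 31.6% of its exon length overlapped the opposite strand. Its call was lost without replicate 1 or 2 at 0.5 nM and without both fibroblast-rich libraries. Between 1 and 3 ATF4 targets were called higher when any single library was left out. DESeq2 called 1 higher, and 2 were higher without a filter and without both fibroblast-rich libraries. Cytosolic heat shock genes had 7 of 30 higher and 1 lower (median 0.06), or 26.7% beside 6.93% of all genes. HSPH1 was 1.18-fold and HSP90AA1 1.10-fold higher, and BAG1, a nucleotide exchange factor, was 1.13-fold lower. Without single replicates at 0.5 nM the higher heat shock genes numbered 3 or 4, and in DESeq2 they numbered 4.

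Lipid genes that moved were mostly lower. INSIG1, which retains the sterol sensor in the ER, had 919, 1036 and 989 normalised reads at 5 nM and 1234, 1219 and 1245 at 0.5 nM (1.26-fold lower, adjusted p = 7.84e-08). Of 28 genes of cholesterol synthesis 3 were lower and none higher (median -0.06), or 10.7% beside 6.93% of all genes. The call of one of them, LSS, rests on a gene with a second copy and on libraries that overlap. In fatty acid synthesis 6 of 21 genes were lower and 1 higher (median -0.02), or 33.3% beside 6.93% of all genes. SREBF1, the controlling transcription factor, fell 1.16-fold, the desaturase SCD 1.11-fold and the synthase FASN 1.08-fold. The carboxylase ACACA fell 1.71-fold, but its bases all occur on an alternate contig as well and the call was lost without replicate 2 at 0.5 nM. ABCA1, the exporter of cholesterol and a target of the sterol receptor LXR, had 457, 507 and 483 at 5 nM and 658, 617 and 608 at 0.5 nM (1.30-fold lower), and the receptor gene NR1H3 fell 1.20-fold. Of 14 genes of LXR and cholesterol export 4 were lower and none higher (median -0.10), or 28.6% beside 6.93% of all genes. The count of lower ones was 1 without both fibroblast-rich libraries or without replicate 2 at 0.5 nM. It was 2 without replicate 1 at 0.5 nM or replicate 1 or 3 at 5 nM. DESeq2 called 3 fatty acid genes and 2 genes of LXR and export lower.

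Of 21 genes of mucin-type O-glycans 4 were lower and 1 higher (median -0.06), or 23.8% beside 6.93% of all genes. GALNT3, which starts such chains, had 489, 559 and 539 normalised reads at 5 nM and 699, 688 and 658 at 0.5 nM (1.29-fold lower), and its relative GALNT1 was 1.15-fold lower. The chondroitin polymerising factor CHPF had 1181, 1293 and 1291 at 5 nM and 1486, 1454 and 1492 at 0.5 nM (1.18-fold lower), with CHPF2 at 1.13-fold lower, among 3 of 32 glycosaminoglycan genes lower and none higher. N-glycan genes had 1 of 45 higher and 3 lower, nucleotide sugar genes 1 of 35 higher and none lower, and coat and cargo genes between ER and Golgi 2 of 64 higher and 1 lower. The shares called were 9.38% of glycosaminoglycan genes, 8.89% of N-glycan genes, 2.86% of nucleotide sugar genes and 4.69% of coat and cargo genes, beside 6.93% of all genes tested. The count of lower O-glycan genes fell to 2 in DESeq2, and to 2 without replicate 2 or 3 at 0.5 nM or replicate 1 at 5 nM.

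Lysosomal enzymes moved in both directions, 7 of 48 lower and 4 higher (median -0.02), or 22.9% beside 6.93% of all genes. The lower ones included enzymes that degrade heparan sulfate. NAGLU had 505, 509 and 511 normalised reads at 5 nM, against 796, 778 and 767 at 0.5 nM (1.53-fold lower, adjusted p = 3.58e-15). SGSH fell 1.31-fold and IDUA 1.18-fold. The acid ceramidase ASAH1 fell 1.15-fold. The largest fall of the list, chosen after its values were seen, was that of LAMP3, a lysosomal membrane protein of dendritic and tumour cells, with 12.9, 17.6 and 18.9 normalised reads at 5 nM and 43.3, 48.1 and 38.1 at 0.5 nM (2.55-fold lower). The cathepsins CTSD (1.10-fold), CTSC (1.14-fold) and CTSL (1.09-fold) were higher, while CTSB (1.07-fold) and CTSF (1.13-fold) were lower. Of 18 proton pump genes 2 were higher and none lower, or 11.1% beside 6.93% of all genes. One of them was ATP6V0A4, a subunit of the membrane part, with 66.4, 54.8 and 67.6 normalised reads at 5 nM and 37.0, 40.4 and 42.1 at 0.5 nM (1.56-fold). The higher lysosomal genes numbered 2 in DESeq2 and without replicate 3 at 0.5 nM. The call of ATP6V0A4 was lost without replicate 1 at 0.5 nM or replicate 1 or 3 at 5 nM.

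In the matrix, 6 of 36 glycoprotein genes were lower and 3 higher (median -0.10). IGFBP4, a carrier of insulin-like growth factors, had 15311, 14676 and 15805 normalised reads at 5 nM and 17745, 17903 and 17429 at 0.5 nM (1.16-fold lower), and IGFBP7 fell 1.17-fold. Of proteases and their inhibitors 4 of 36 were higher and 5 lower (median 0.00). TIMP1, a secreted inhibitor of metalloproteinases, had 6456, 6529 and 6727 normalised reads at 5 nM and 7862, 7755 and 7795 at 0.5 nM (1.19-fold lower). Its relative TIMP3 had 9766, 9732 and 9419 at 5 nM and 11807, 11488 and 11688 at 0.5 nM, and SPINT2, an inhibitor of serine proteases, fell 1.13-fold. The proteases PLAU, the urokinase (1.14-fold), MMP1 (1.20-fold) and ADAMTS1 (1.33-fold) were higher. Of 38 collagen genes 2 were higher and 1 lower, a share near that of all genes tested (7.89% against 6.93%). The share was 25% for matrix glycoproteins and 25% for proteases and their inhibitors. SNAI1, a repressor of E-cadherin, had 90.0, 101.2 and 106 normalised reads at 5 nM and 128, 154 and 129 at 0.5 nM (1.38-fold lower), a call lost in the fits to 12 and 15 libraries, without replicate 2 at 0.5 nM or replicate 1 at 5 nM, and without both fibroblast-rich libraries. The protease counts fell to 2 higher without replicate 1 of either dose, and to 3 lower without replicate 1 or 3 at 0.5 nM or replicate 2 or 3 at 5 nM. DESeq2 called 2 higher and 3 lower, and 3 were lower without a filter and without both fibroblast-rich libraries.

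In the BCL2 family 5 of 26 genes were lower and 2 higher (median 0.00), or 26.9% beside 6.93% of all genes. The lower ones included BH3-only genes, which promote cell death: BMF had 321, 325 and 320.5 normalised reads at 5 nM and 471, 417 and 430.3 at 0.5 nM (1.36-fold lower, adjusted p = 1.92e-06), and BCL2L11, which encodes BIM, had 237, 239 and 241 at 5 nM and 330.0, 332 and 313 at 0.5 nM (1.36-fold lower). BBC3 fell 1.29-fold. The protective member MCL1 fell 1.09-fold and BCL2L1 rose 1.11-fold, with 41.3% of the exon length of BCL2L1 overlapping the opposite strand. The lower count was 2 without replicate 1 or 2 at 0.5 nM, and MCL1 lost its call in both and without replicate 1 at 5 nM. In DESeq2 and without both fibroblast-rich libraries the lower count was 3. Interferon-stimulated genes were lower where they were called, 5 of 38 with none higher (median -0.13), or 13.2% beside 6.93% of all genes. A fitted value below 0 was seen in 32 of the 38. STAT2, a transducer of interferon signals, had 1037, 970.1 and 1015 normalised reads at 5 nM and 1241, 1196 and 1154 at 0.5 nM (1.19-fold lower), and IFIT2 fell 1.14-fold. The interferon count was 1 without replicate 3 at 0.5 nM and 3 without replicate 1 at 5 nM, without a filter or without both fibroblast-rich libraries, DESeq2 called 1, and with scaling to nuclear genes it was 8. IFIT2 was among the calls lost in DESeq2, without both fibroblast-rich libraries and without either of these single libraries.

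Of 41 genes of glycolysis and the hypoxia response 9 were higher and 4 lower (median 0.04), or 31.7% beside 6.93% of all genes. Of the 9 higher ones, 6 encode glycolytic enzymes. PKM, pyruvate kinase, had 38153, 36470.0 and 38037 normalised reads at 5 nM and 34419, 35129 and 34804 at 0.5 nM (1.08-fold higher), and the phosphofructokinase PFKP rose 1.14-fold, hexokinase HK1 1.11-fold and enolase ENO1 1.07-fold. EPAS1, the hypoxia factor HIF-2α, had 1543, 1604 and 1487 at 5 nM and 1766, 1810.3 and 1900.2 at 0.5 nM (1.18-fold lower), while HIF1A rose 1.07-fold and NDRG1 1.17-fold. The glucose transporter SLC2A3 fell 1.19-fold.

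Of 31 genes of Eph receptors, semaphorins and plexins, which guide cells by contact, 6 were higher and 2 lower (median 0.03). The plexins PLXNA1 (1.07-fold), PLXNA2 (1.14-fold) and PLXNA3 (1.11-fold), receptors of semaphorins, were higher, and the secreted ligands SEMA3F (1.25-fold) and SEMA3C (1.11-fold) lower. PLXNA3 and SEMA3C lost their calls in DESeq2 and without replicate 3 at 0.5 nM or replicate 1 at 5 nM, among others. The higher count was 1 without both fibroblast-rich libraries and in DESeq2, and 2 or 3 without replicate 2 or 3 at 0.5 nM or replicate 1 at 5 nM. Of 34 NF-κB genes 4 were higher and 3 lower (median -0.02), with the cytokine TNFSF15 1.34-fold higher and the superoxide dismutase SOD2 1.12-fold lower. That higher count was 2 without replicate 2 at 0.5 nM, replicate 1 at 5 nM or both fibroblast-rich libraries, and 1 in DESeq2. Of 13 complement genes 1 was higher and 3 lower (median -0.06). The shares called were 25.8% of Eph and semaphorin genes, 20.6% of NF-κB genes and 30.8% of complement genes, beside 6.93% of all genes. CD59, which blocks the membrane attack complex, fell 1.09-fold, a call lost without replicate 2 or 3 at 0.5 nM.

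BMP4, a bone morphogenetic protein, had 5129, 4850.4 and 5009 normalised reads at 5 nM and 3899.6, 3887 and 3856 at 0.5 nM (1.29-fold higher, adjusted p = 1.78e-17). Its secreted antagonist NOG rose 1.31-fold and the receptor BMPR2 fell 1.18-fold. ID1, a target of this pathway that blocks differentiation factors, had 3209, 3126 and 3183 at 5 nM and 2997, 2943 and 2799 at 0.5 nM (1.09-fold higher), a call lost without replicate 3 at 0.5 nM or replicate 1 at 5 nM. Of 12 tested ID and SMAD genes ID1 alone was called (8.33%, median -0.03), and 7 had a fitted value below 0. Of 24 genes of BMP and activin signals 2 were higher and 1 lower (median -0.06), or 12.5% beside 6.93% of all genes. Of 46 ribosomal protein genes 3 were higher and none lower (median 0.02), or 6.52% beside 6.93% of all genes.

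**Figure D5:**
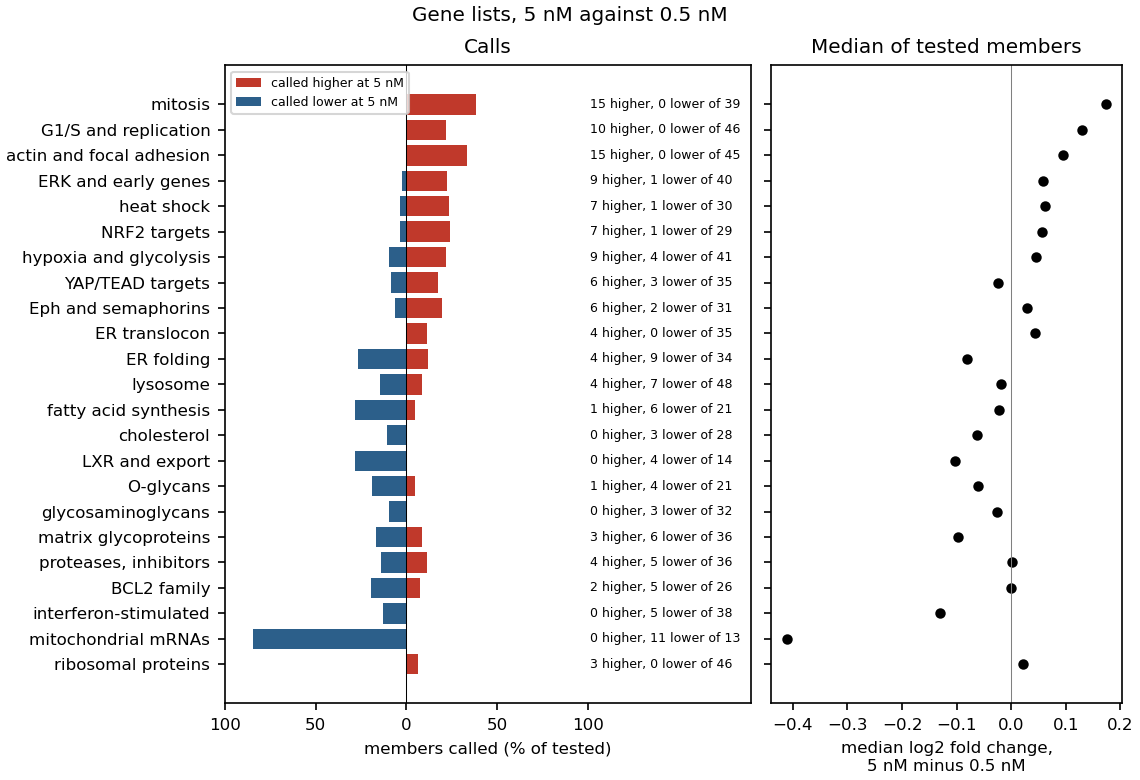
Left, the share of tested members called higher (red, to the right) and lower (blue, to the left) at 5 nM for 23 gene lists, with the counts printed beside the bars. Right, the median log2 fold change of the tested members: mitochondrial mRNAs lie lowest, at -0.41, and mitotic genes highest, at 0.17.

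Of 6 genes that the study had named as raised, EPHA2, HSP90AA1 and DNAJB9 were called higher in the step and none lower. The call of DNAJB9 was lost in DESeq2, without both fibroblast-rich libraries, and without replicate 1 or 2 at 0.5 nM or replicate 3 at 5 nM. These genes were chosen on these same samples, so their direction is not independent. SLC3A2, the heavy chain of amino acid transporters, had 2542, 2262 and 2957 normalised reads at 5 nM and 1749, 1876 and 1897 at 0.5 nM. The groups were separate, but the spread at 5 nM left the 1.40-fold difference uncalled (adjusted p = 0.115). ATP6V0A1 and GPRC5A were not called, at log2 0.09 ± 0.06 and -0.02 ± 0.05 (SE). Of 8 genes named as lowered, VWA1, GALNT1 and B4GALT1 (1.07-fold) were called lower and none higher. The call of B4GALT1 was lost in DESeq2, without a filter, in the fits to 12 and 15 libraries, without both fibroblast-rich libraries and without any single library but replicate 2 at 5 nM. The integrin ITGA5 was not called at log2 0.05 ± 0.04, nor were ICAM1 at 0.05 ± 0.04, ITGB5 at 0.01 ± 0.03, ITGAV at -0.10 ± 0.04 and COL5A1 at -0.07 ± 0.03 (SE).

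The genes of the step were then read in libraries that it does not use. At 50 nM against DMSO, 3087 genes were called (20.3%), 1624 higher (10.7%) and 1463 lower (9.6%). Of the 540 genes higher in the step, 231 (42.8%, or 14.2% of the 1624) were also called higher there and 43 lower. Of the 515 lower in the step, 224 (43.5%, or 15.3% of the 1463) were called lower there and 49 higher. The direction of the fitted value was the same in 405 of the 540 and 373 of the 515. By list, all 6 higher genes of the YAP list, 11 of 15 higher actin genes, 9 of 10 higher G1/S genes and 7 of 15 higher mitotic genes were called higher at 50 nM too. Of the 7 NRF2 targets higher in the step, 1 was called higher and 4 lower at 50 nM, and of the 11 mitochondrial mRNAs lower in the step 4 were called lower.

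The next 10-fold step that shares no library, 500 nM against 50 nM, called 2068 genes (13.6%), 997 higher (6.55%) and 1071 lower (7.03%). Of the 540 genes higher at 5 nM, 136 (25.2%, or 13.6% of the 997) were higher again and 61 lower, and of the 515 lower genes 139 (27.0%, or 13.0% of the 1071) were lower again and 59 higher. A test of the difference between the steps over the 12 treated libraries, which uses the libraries of the step itself, called 1393 genes (9.14%), 604 with a more positive change in the higher step (3.97%) and 789 with a more negative one (5.18%). LIPG and HTRA3 fell in both steps, and the difference between the steps was not called for them. For HTRA3 it was -0.18 ± 0.12 on the log2 scale (SE), and for LIPG -0.14 ± 0.09. ID1 went the other way: it rose in the lower step and averaged 295 ± 14.6 normalised reads at 500 nM, against 1556 ± 23.3 at 50 nM (SD, n = 3 each).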

How the data were processed

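Poly(A)-selected RNA of 15 plates was sequenced, and the authors deposited gene counts divided by DESeq2 size factors, a normalised read count (signal) per library. The submitters' processing notes name HISAT2, HTSeq, DESeq2 and hg38, and versions, annotation and strand setting were not given in the sources used here. Deposited tables of the authors' own fold changes and p-values were not used. Dividing each library by the worth of 1 read gave whole reads for 100% of its values (tolerance 0.001), between 7773325 and 10065633 a library.

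The step was tested in the 6 libraries with limma 3.58.1 (trend, robust, two-sided) on log2(normalised reads + 1), with Benjamini-Hochberg adjustment over 15233 genes and a threshold of 0.05, in R 4.3.3. Fold changes are on that scale and understate the change of genes with few reads. The same kind of fit, to the libraries of each comparison, gave 50 nM against DMSO, 500 nM against 50 nM and the difference of steps. The test was checked on simulated data.

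Genes named were those with the largest changes, 10 in each direction, that reached an average of 100 normalised reads in either group and had separate libraries, the 5 in each direction with the smallest p under those conditions, 14 genes of the study, up to 4 per list with the smallest p, and 5 called in opposite directions in 2 steps. Other called list members are given by fold change alone, and some genes are not reported here. The genes, lists and tests were chosen with earlier results of these data known, and some motifs (CHR, E2F, TEAD, ARE) after values were seen. Positions come from GENCODE 44 (13151 of 15233 symbols matched) and promoters from RefSeq (170 of 221 named genes matched). A gene counted as having a second copy where at least 50% of its sampled 31-base words occur elsewhere on the primary chromosomes or on alternate contigs. Alternatives were TMM scaling, other filters and pseudocounts, edgeR 4.0.16 and DESeq2 1.42.0 on the recovered reads, fits to 12 or 15 libraries, a replicate block, and leaving out libraries. Leaving out genes with a second copy, and scaling to nuclear genes, were added after seeing the data.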

Additional observations from a re-analysis of the deposited data

Results flagged for a closer look

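The results below are named because the change over the 10-fold step from 50 to 500 nM differed from that between 0.5 and 5 nM in a test of the difference itself (limma over the 12 treated libraries, adjusted p below 0.05). In all, 1393 genes passed. Most genes named were chosen for their change between 0.5 and 5 nM. That change enters the difference, so the direction of the difference is partly fixed by the choice. ID1, AC067930.5, AC105020.4 and PRSS2 were chosen for large changes called in opposite directions in both steps. For them the choice itself fixed the direction of the difference and favoured a large one. Each value is the log2 change of the higher step minus that of the lower one, so that a negative value means less rise or more fall between 50 and 500 nM.

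Among the genes higher at 5 nM, the difference was -0.78 for DPP4, -1.31 for UCA1, -0.83 for AKR1C1, -1.26 for DGCR5, -0.90 for PRKG1-AS1, -0.66 for CCN1, -0.25 for ITGA3, -0.23 for FLNA and -0.26 for BMP4. Their changes between 50 and 500 nM were within 0.5 on the log2 scale. For ID1 it was -2.52, since ID1 rose by 0.12 at 5 nM and fell by 2.39 at 500 nM. For AC067930.5 and AC105020.4, called in opposite directions in the 2 steps, it was -1.84 and -1.72. Their calls between 0.5 and 5 nM were lost in several alternatives, that of AC067930.5 without any single library but replicate 1 at 5 nM, and that of AC105020.4 without replicate 2 or 3 at 0.5 nM or 1 or 3 at 5 nM, and both without the fibroblast-rich libraries.

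Among the genes lower at 5 nM, the difference was 1.25 for CEBPB-AS1, 0.86 for PI16, 0.70 for RAET1E-AS1, 0.89 for TSPAN8, 1.09 for PTGS1 and 0.45 for CLU. It was 0.88 for MT-RNR2 and 1.04 for MT-RNR1, which were higher again at 500 nM than at 50 nM. For PRSS2, called lower in the step and higher at 500 nM, it was 1.67, and 98% of its sampled words occur on alternate contigs.

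The largest differences were those of genes with a second copy or a pseudoautosomal position, -4.33 for NOMO1, -2.97 for ITPK1 and 5.23 for GTPBP6, whose levels moved back and forth over the doses.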

How the results depend on the processing

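The count of 1055 genes lay between 875 and 1157 with other filters, pseudocounts, TMM, edgeR (1008 shared genes), fits to more libraries and the 2 additions, and 748 (630 shared) without both fibroblast-rich libraries. DESeq2 called 505 (247 higher, 258 lower; 497 shared), and an absolute log2 fold change of at least 1 left 17 (9 higher, 8 lower). The cause was not tested, save that the fold rule asks for larger changes. Leaving out 1 library gave 606 to 1219 genes, 314 to 649 higher and 292 to 570 lower. DESeq2 called 1998 genes at 50 nM against DMSO, 1206 at 500 nM against 50 nM and 876 for the difference of steps. Whether same-numbered plates were handled together was not given. The deviations of their genes from the mean of the dose correlated at 0.027, 0.176 and 0.017 for replicates 1, 2 and 3. Differently numbered plates gave -0.176 to 0.152. The highest value was that of the replicate 2 plates, which were the fibroblast-rich ones. A replicate block called 1070 genes (553 higher, 517 lower). Of 179 called genes among those named, 111 kept the call in every alternative that tested them, the fold rule aside. Genes with a second copy and mitochondrial genes were not tested in the alternatives that leave them out. A further 52 genes lost the call in at least 1 alternative beyond leaving out a library, and 16 only on leaving out a library. The sign turned for GPRC5A (log2 -0.02, not called), at 0.029 without both fibroblast-rich libraries and -0.059 to 0.040 on leaving out 1 library, and for ITGB5 (0.01, not called), at -0.0052 with scaling to nuclear genes and -0.016 to 0.034 on leaving out 1 library. At 8052442 to 9865817 reads a library, changes of low genes were less often detectable.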
